A study of Mus musculus with 3 samples.

Results

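Neurofilament transcripts were compared between 3 RNA-seq libraries of cultured mouse cortical neurons. The set holds 4 genes of the 54232 Ensembl gene identifiers in the gene count files. They are Nefl, Nefm and Nefh, which encode the light, medium and heavy neurofilament chains, and Ina, which encodes alpha-internexin. They were chosen by name as the subunits of neurofilaments in the central nervous system. The rule used no measured value, but earlier results of these data were known when the choice was made. All 3 libraries came from wildtype CD1 cortical neurons and each is repeat 3 of its group; other repeats were not analysed here. For IKVAV PA + PEDOT-S, neurons grew with a peptide amphiphile that carries IKVAV, a short laminin sequence, together with PEDOT-S, a conducting polymer. A peptide amphiphile is a peptide that assembles itself into fibres. The polymer is PS2 in the sample title but PEDOT-S_OH where the library is named, and the text treats these as the same material without proof. For IKVAV PA the polymer was left out. The third library, the PDL control, carries an abbreviation that the labels leave unexplained. The treatment field of the labels names a peptide amphiphile for all 3 libraries, the control included, so groups were taken from titles and library names. The sources used here do not give the culture age, the number of embryos behind a library or whether cells were pooled.

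With 1 library per group no test between groups was possible, and every difference below describes these libraries without a replicate check. The libraries held 79057998 counts for IKVAV PA + PEDOT-S, 124425958 for IKVAV PA and 78993105 for the PDL control. Levels are normalised CPM, that is, counts scaled to a fixed library total with trimmed-mean (TMM) factors, which lay between 0.990 and 1.01. Each ratio between libraries carries a 95% interval that covers counting error only, without variation between cultures or library preparations. Reads copied by PCR and not tagged by molecule can stem from the same original, which would make even this interval too narrow. A gene was counted as higher or lower where the bound of that interval nearest to no difference lay beyond 1.5-fold, among 13884 genes with at least 1 CPM in at least 1 library. In bulk RNA, fewer cells of a type and less RNA per cell cannot be told apart.

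Neurofilaments are the intermediate filaments of neurons and fill the axon. The light chain forms the filament core together with alpha-internexin, whereas the medium and heavy chains carry long tails that project from the filament and are phosphorylated on lysine-serine-proline repeats. In the rodent brain alpha-internexin is abundant in young neurons, the light and medium chains follow, and the heavy chain increases late, as axons mature and widen. The proportion of heavy chain to alpha-internexin is therefore often read as a measure of neuronal maturity. Protein, filament assembly and phosphorylation were not measured here.

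In the GENCODE M21 annotation (GRCm38), Ina lies at chr19:47014698-47025327 on the plus strand and Nefh at chr11:4938754-4948064 on the minus strand. Nefl lies at chr14:68083863-68089095 on the plus strand. The usual 3-exon transcript of the neighbouring Nefm gene, Nefm-201, runs on the minus strand at chr14:68119283-68124846, and 30187 bases separate it from Nefl. A second annotated transcript, Nefm-202, skips the tail-coding exon of Nefm-201 and ends in an exon of 2381 bases that lies antisense across the first exon of Nefl. Through it 1108 exonic bases, 32.8% of those of Nefl and 19.2% of those of Nefm, belong to both genes. The first exon of Ina likewise shares 456 bases, 14.1% of its exonic bases, with a transcript of Nt5c2 on the other strand. Nefh shares none.

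**Figure D1:**
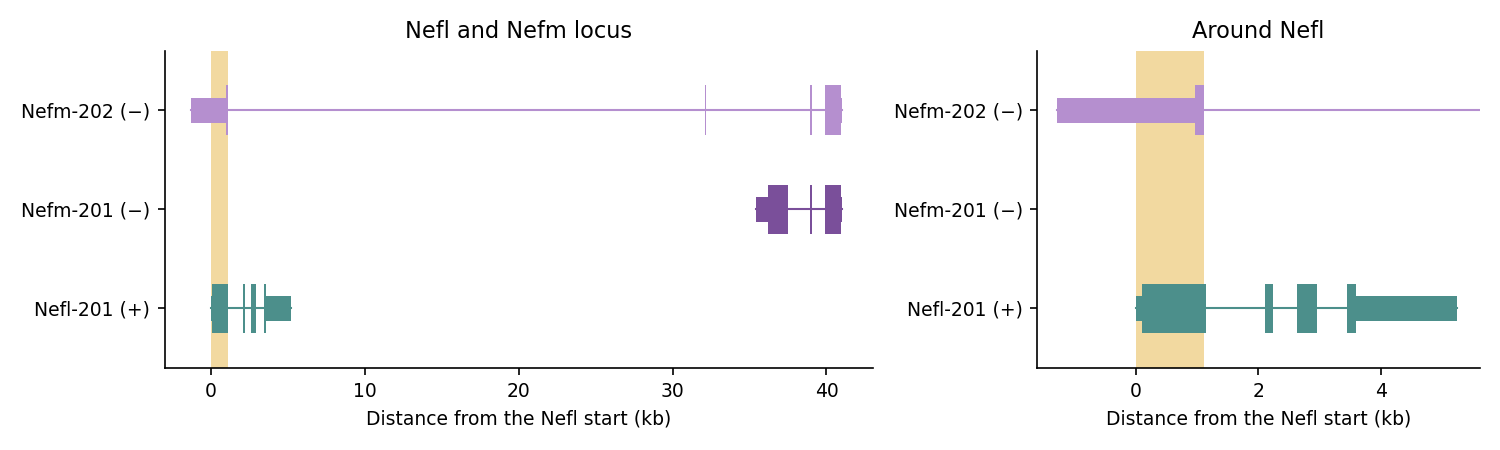
Transcripts of Nefl and Nefm on GRCm38, drawn to scale as distance from the Nefl start in kb, for the whole locus (left) and around Nefl (right). Tall boxes are coding exons, low boxes untranslated exons, and the shaded band marks the 1108 exonic bases that Nefl-201 and Nefm-202 share on opposite strands.

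Reads that fall on bases shared by 2 genes appear not to have been counted for either gene, whatever their strand. Of 453 genes whose exonic bases are all shared with genes on the opposite strand, 449 (99.1%) had 0 counts in all 3 libraries, against 18012 of 41689 (43.2%) among genes of the same types with no shared base. Counts of Nefl, Nefm and Ina were accordingly read as coming from their unshared bases, if the annotation used by the authors held the same transcripts, and levels per kilobase are given on both lengths. Within the 1108 bases, 144 are coding on both strands under the annotation, as Nefl on the plus strand and as the end of Nefm-202 on the minus strand. They are printed here in capitals, as the sequence at which the counts of the 2 chains touch, followed in lower case by the remainder of the exon, which is Nefl alone (chr14:68084827-68085009, plus strand).
Nefl, end of coding exon 1: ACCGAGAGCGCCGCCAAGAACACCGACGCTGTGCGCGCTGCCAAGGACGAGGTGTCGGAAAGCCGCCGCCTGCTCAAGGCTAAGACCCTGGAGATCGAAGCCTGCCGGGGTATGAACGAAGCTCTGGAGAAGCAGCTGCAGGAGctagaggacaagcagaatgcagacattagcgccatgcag

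The subunits are related, but their transcripts share only short identical runs. The longest run shared by any pair of the 4 transcripts was 23 bases, between Nefm-201 and Nefh-201 in the coding sequence, and the other 5 pairs shared at most 20 bases. 
Nefh differed from the other members in repeating itself. Of the 3945 windows of 50 bases in its transcript, 150 occurred more than once, against 0 in Ina-201, Nefl-201 and Nefm-201. The repeats lie in the tail, where the heavy chain carries its lysine-serine-proline repeats. The most frequent 18-base unit occurred 9 times, and a 180-base stretch with 5 of these copies in capitals (chr11:4940485-4940664, minus strand) shows how closely they follow each other.
Nefh: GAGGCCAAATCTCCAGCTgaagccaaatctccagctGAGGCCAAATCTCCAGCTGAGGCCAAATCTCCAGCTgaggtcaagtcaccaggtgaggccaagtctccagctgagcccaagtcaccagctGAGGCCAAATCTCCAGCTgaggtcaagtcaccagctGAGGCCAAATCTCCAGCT
The sources used here do not say how reads that map to several places were treated, so the level of Nefh relative to the other subunits is uncertain. Its ratios between libraries use the same bases in each.

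Alpha-internexin made up most of the neurofilament RNA in every library and the heavy chain very little. Per kilobase of exon, Ina stood at 199 normalised CPM in the IKVAV PA + PEDOT-S library, 199 in IKVAV PA and 190 in the PDL control. Nefl stood at 24.1, 22.03 and 27.2 and Nefm at 18.3, 13.6 and 14.2 normalised CPM per kilobase in the same libraries. Nefh stood at 1.79, 1.81 and 1.87. The order Ina, Nefl, Nefm, Nefh was the same in all 3 libraries on this length. Per kilobase of unshared exon, Ina stood at 232, 232 and 222 normalised CPM, Nefl at 35.8, 32.8 and 40.5 and Nefm at 22.6, 16.8 and 17.6, in the same order. Ina was among the most abundant of all transcripts, with 98.8% of the genes compared below it in each library by count, while 28.8%, 28.3% and 28.0% lay below Nefh.

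The gap between the first and the last subunit was wide. Per kilobase of exon, Ina exceeded Nefh 111-fold in the IKVAV PA + PEDOT-S library, 110-fold in IKVAV PA and 102-fold in the PDL control. It exceeded Nefl 8.28-fold, 9.05-fold and 7.001-fold. With unshared bases alone as the length, Ina exceeded Nefl 6.47-fold, 7.08-fold and 5.48-fold, so the lead of Ina held on either length.

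Nefl and Nefm were closer, and their order rested on the transcript taken for Nefm. Nefl stood above Nefm per kilobase of exon by 1.32-fold in the IKVAV PA + PEDOT-S library, 1.63-fold in IKVAV PA and 1.91-fold in the PDL control. With the length of Nefm-201 in place of all Nefm exons, a choice made after seeing the data, Nefm lay above Nefl in the 2 scaffold libraries (12.4% against 9.37% of the 4 subunits with PEDOT-S, 9.53% against 8.93% without) and below it in the PDL control (10.1% against 11.1%). With unshared bases and Nefm-201 together, also chosen later, Nefl lay above Nefm in all 3. Which of these chains had more RNA per molecule length was therefore not settled. How their proportion differed between libraries does not depend on length and is given below.

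**Figure D2:**
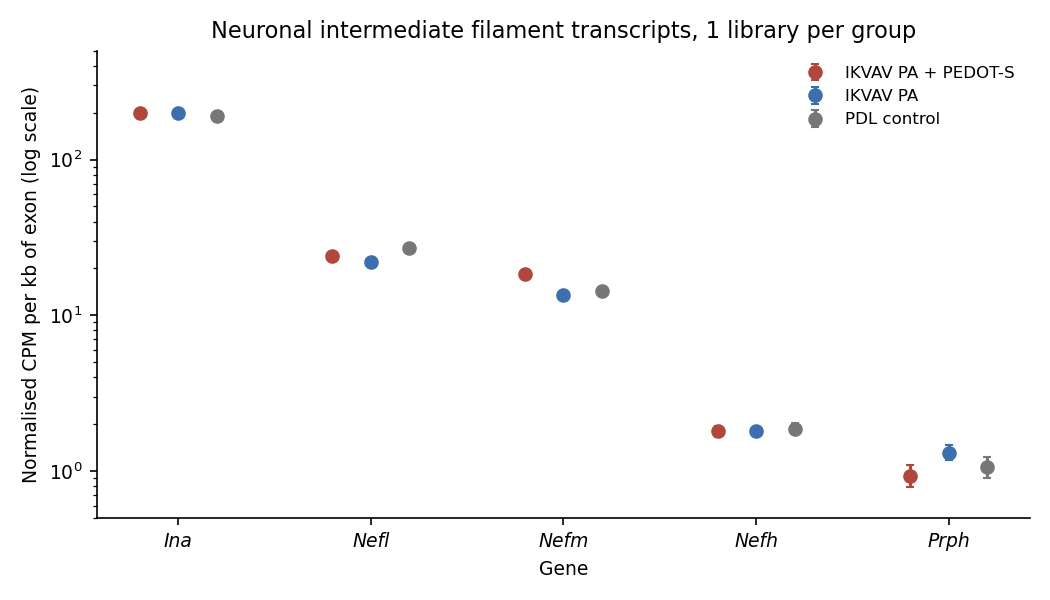
Normalised CPM per kb of exon (log scale) of the 4 neurofilament genes and of Prph, with 1 point per library and bars for the 95% counting interval. Ina lies near 199, 199 and 190, Nefl and Nefm between 13.6 and 27.2, and Nefh near 1.8 in all 3 libraries.

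No neurofilament gene was counted as higher or lower in any of the 3 comparisons. Of all genes compared, 0.447% were higher and 3.76% lower in IKVAV PA + PEDOT-S against the PDL control, 0.54% and 3.42% in IKVAV PA against the PDL control, and 0.331% and 2.02% in IKVAV PA + PEDOT-S against IKVAV PA. A count of 0 of 4 is what shares this small would usually give. The median log2 ratio of the 4 genes was 0.004, -0.06 and 0.06 in these comparisons, beside -0.0025, 0.0002 and 0.007 over all genes compared. The members differed among themselves more than these medians show.

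Nefm, the medium chain, gave the largest ratios of the 4. It had 8277 counts (106 normalised CPM) in the IKVAV PA + PEDOT-S library, 9765 counts (78.4 CPM) in IKVAV PA and 6549 counts (82.2 CPM) in the PDL control. The library with PEDOT-S was high and the other two lay close together. The log2 ratio was 0.36 with PEDOT-S against the PDL control (counting interval 0.32 to 0.41), or 1.29-fold. Against IKVAV PA it was 0.43 (0.39 to 0.47), or 1.35-fold. Both intervals lie above 0 and inside the 1.5-fold bound. Among the 4591 genes with a mean of at least 50 CPM, 1.83% had a higher ratio than Nefm in the first of these comparisons and 0.523% in the second. Between IKVAV PA and the PDL control the ratio of Nefm was -0.07 (-0.11 to -0.02).

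Nefl, the light chain, was lowest in the IKVAV PA library. It had 6365 counts (81.3 normalised CPM) in IKVAV PA + PEDOT-S, 9278 counts (74.4 CPM) in IKVAV PA and 7323 counts (91.9 CPM) in the PDL control. The control was highest, and the 3 counting intervals did not overlap. The log2 ratio was -0.18 with PEDOT-S against the PDL control (-0.23 to -0.13) and -0.30 in IKVAV PA against the PDL control (-0.35 to -0.26), which is 1.23-fold lower. Of the genes with at least 50 CPM, 4.97% and 1.20% had a lower ratio than Nefl in these comparisons. With PEDOT-S against IKVAV PA the ratio was 0.13 (0.08 to 0.17), and 20.3% of the genes at that level had a higher ratio.

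Ina and Nefh each had similar levels in the 3 libraries. Ina had 50498 counts (645 normalised CPM) in IKVAV PA + PEDOT-S, 80475 counts (646 CPM) in IKVAV PA and 49145 counts (617 CPM) in the PDL control. Its log2 ratio to the control was 0.06 with PEDOT-S (0.05 to 0.08) and 0.07 without (0.05 to 0.08). Between the scaffolds it was -0.001 (-0.02 to 0.01). Against the control the counting intervals of Ina exclude 0, yet 56.4% and 50.8% of the genes at 50 CPM or more lay at least as far from 0. Nefh had 561 counts (7.17 CPM) in IKVAV PA + PEDOT-S, 899 counts (7.21 CPM) in IKVAV PA and 594 counts (7.46 CPM) in the PDL control, and its 3 counting intervals overlapped. Its log2 ratio to the control was -0.06 with PEDOT-S (-0.23 to 0.11) and -0.05 without (-0.20 to 0.10). Both intervals include 0, and a difference within them was not detectable at this depth.

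**Figure D3:**
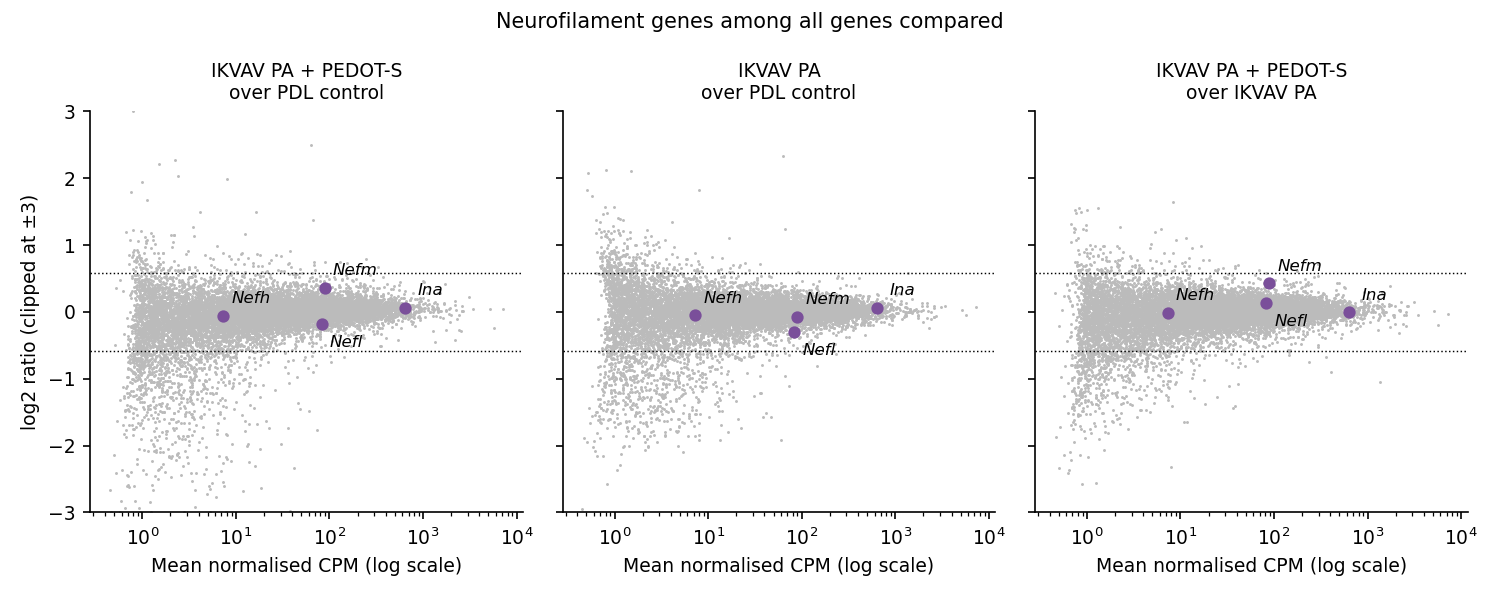
Log2 ratio between libraries against mean normalised CPM (log scale) for all 13884 genes (grey) and the neurofilament genes (purple), with dotted lines at 1.5-fold. All 4 genes lie between the lines in the 3 panels, and Nefm lies near the upper edge of the genes of its level in both comparisons that hold the PEDOT-S library.

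Summed over the 4 genes, neurofilament RNA hardly differed. The sum was 839 normalised CPM in IKVAV PA + PEDOT-S, 806 in IKVAV PA and 799 in the PDL control, with log2 ratios to the control of 0.07 (0.06 to 0.09) and 0.01 (-0.002 to 0.03). Ina dominates this sum. The 3 classical chains Nefl, Nefm and Nefh together stood at 194, 160 and 182 normalised CPM, and IKVAV PA was the low library, with a log2 ratio of -0.18 to the PDL control (-0.21 to -0.15).

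The proportions of the subunits within a library do not depend on library scaling. When libraries are compared, lengths cancel for the ratio of a subunit to another, but not for percent shares. Of the 4 subunits per kilobase of exon, Ina held 81.9% in IKVAV PA + PEDOT-S, 84.2% in IKVAV PA and 81.5% in the PDL control. Nefl held 9.89%, 9.31% and 11.6%, Nefm 7.52%, 5.73% and 6.08%, and Nefh 0.738%, 0.763% and 0.799%. The IKVAV PA library thus had the highest share of Ina and the lowest shares of Nefl and Nefm, while the library with PEDOT-S had the highest share of Nefm. Among the 3 classical chains alone, Nefm held 41.4% with PEDOT-S, 36.3% in IKVAV PA and 32.9% in the PDL control, and Nefl held 54.5%, 58.9% and 62.8%.

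The proportion of Nefm to Nefl differed between all 3 libraries and, with PEDOT-S against the control, more than that of any other pair of subunits. The count of Nefm over that of Nefl was 1.30 in IKVAV PA + PEDOT-S (counting interval 1.26 to 1.34), 1.05 in IKVAV PA (1.02 to 1.08) and 0.894 in the PDL control (0.865 to 0.925). The 3 intervals did not overlap, and the order ran from the library with PEDOT-S down to the control. Between libraries the proportion was 1.45-fold higher with PEDOT-S than in the PDL control (1.39 to 1.52), 1.18-fold higher in IKVAV PA than in the control (1.13 to 1.23), and 1.24-fold higher with PEDOT-S than in IKVAV PA (1.18 to 1.29). None of these passed the 1.5-fold bound. Against the control, the difference with PEDOT-S came from both sides, with Nefm at 0.36 and Nefl at -0.18, whereas in IKVAV PA it came mainly from Nefl at -0.30. As a scale for these single-gene ratios, the middle 90% of genes with at least 50 CPM lay at -0.18 to 0.24 with PEDOT-S against the control. In IKVAV PA against the control they lay at -0.17 to 0.20. The proportion of 2 genes has no such scale here, because its spread over other pairs of genes was not measured.

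**Figure D4:**
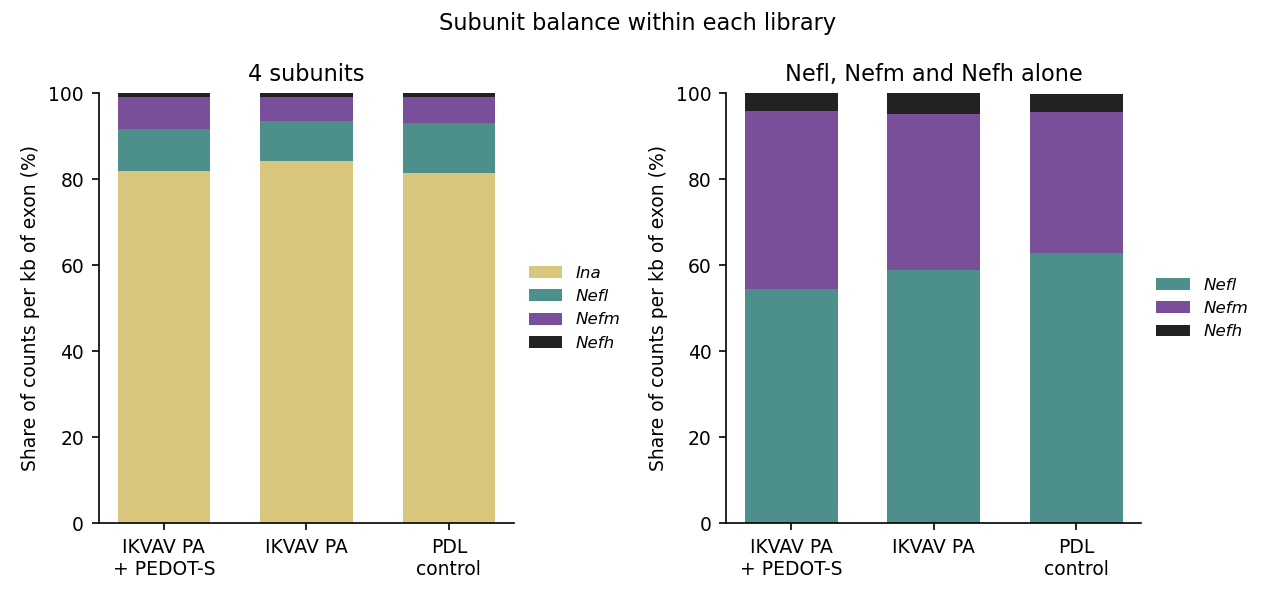
Share of each subunit (%) in the summed counts per kb of exon, for all 4 subunits (left) and without Ina (right), with 1 bar per library. Ina holds 81.9%, 84.2% and 81.5% on the left, and on the right Nefm holds 41.4%, 36.3% and 32.9% in IKVAV PA + PEDOT-S, IKVAV PA and the PDL control.

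The proportion of heavy chain to alpha-internexin, often read as a measure of maturity, did not separate the libraries. The count of Nefh over that of Ina was 0.0111 in IKVAV PA + PEDOT-S (0.0102 to 0.0121), 0.0112 in IKVAV PA (0.0104 to 0.0119) and 0.0121 in the PDL control (0.0111 to 0.0131). Between libraries it was 0.919-fold with PEDOT-S against the control (0.817 to 1.03), 0.924-fold in IKVAV PA against the control (0.832 to 1.03) and 0.994-fold with PEDOT-S against IKVAV PA (0.893 to 1.11). All 3 intervals include no difference. The proportion of Nefh to Nefm was 0.747-fold with PEDOT-S against the control (0.662 to 0.844), which follows the higher Nefm. That of Nefh to Nefl was 1.19-fold in IKVAV PA against the control (1.07 to 1.33), which follows the lower Nefl. Nefl over Ina was 0.846-fold with PEDOT-S and 0.774-fold in IKVAV PA against the control, and Nefm over Ina was 1.23-fold and 0.911-fold.

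Among the other intermediate filaments, Nes, Vim and Gfap went further apart between the libraries than any neurofilament gene, while Synm and the lamins did not. Prph, described below, reached -0.49 with PEDOT-S against IKVAV PA, further from 0 than Nefm at 0.43, but with a wide counting interval. Of 11 listed genes 8 passed the expression filter, and Des, Krt8 and Krt18 did not. Nes, the filament nestin of progenitors, stood at 31.5, 27.3 and 80.9 normalised CPM in IKVAV PA + PEDOT-S, IKVAV PA and the PDL control, which was 2.57-fold and 2.96-fold lower than in the control. Vim, vimentin of progenitors, glia and fibroblasts, was 1.59-fold and 1.75-fold lower, at 123.97, 113 and 198 CPM. Both were counted as lower in each scaffold library. Gfap, the astrocyte filament, was counted as higher with PEDOT-S against the control (log2 ratio 1.79) and against IKVAV PA (1.49), at only 1.39, 0.497 and 0.402 CPM. Against the control 1 of 8 genes was higher and 2 lower with PEDOT-S (median log2 ratio -0.19), 0 and 2 in IKVAV PA (0.01), and 1 and 0 between the scaffolds (0.05).

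Prph, peripherin, the neuronal filament of peripheral and spinal motor neurons, was weak, with 146, 327 and 169 counts and 1.87, 2.62 and 2.12 normalised CPM. Its log2 ratio was -0.49 with PEDOT-S against IKVAV PA (-0.78 to -0.21), the opposite direction to Nefm, without passing the bound. Synm, synemin, stood at 68.8, 84.3 and 78.1 CPM and was at -0.29 between the scaffolds (-0.34 to -0.25). Of the nuclear lamins, Lmna was at -0.22 with PEDOT-S against the control (-0.30 to -0.13) and at -0.23 in IKVAV PA (-0.30 to -0.15), while Lmnb1 was at 0.004 and -0.10 and Lmnb2 at -0.01 and 0.11. None of the lamins passed the bound.

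**Figure D5:**
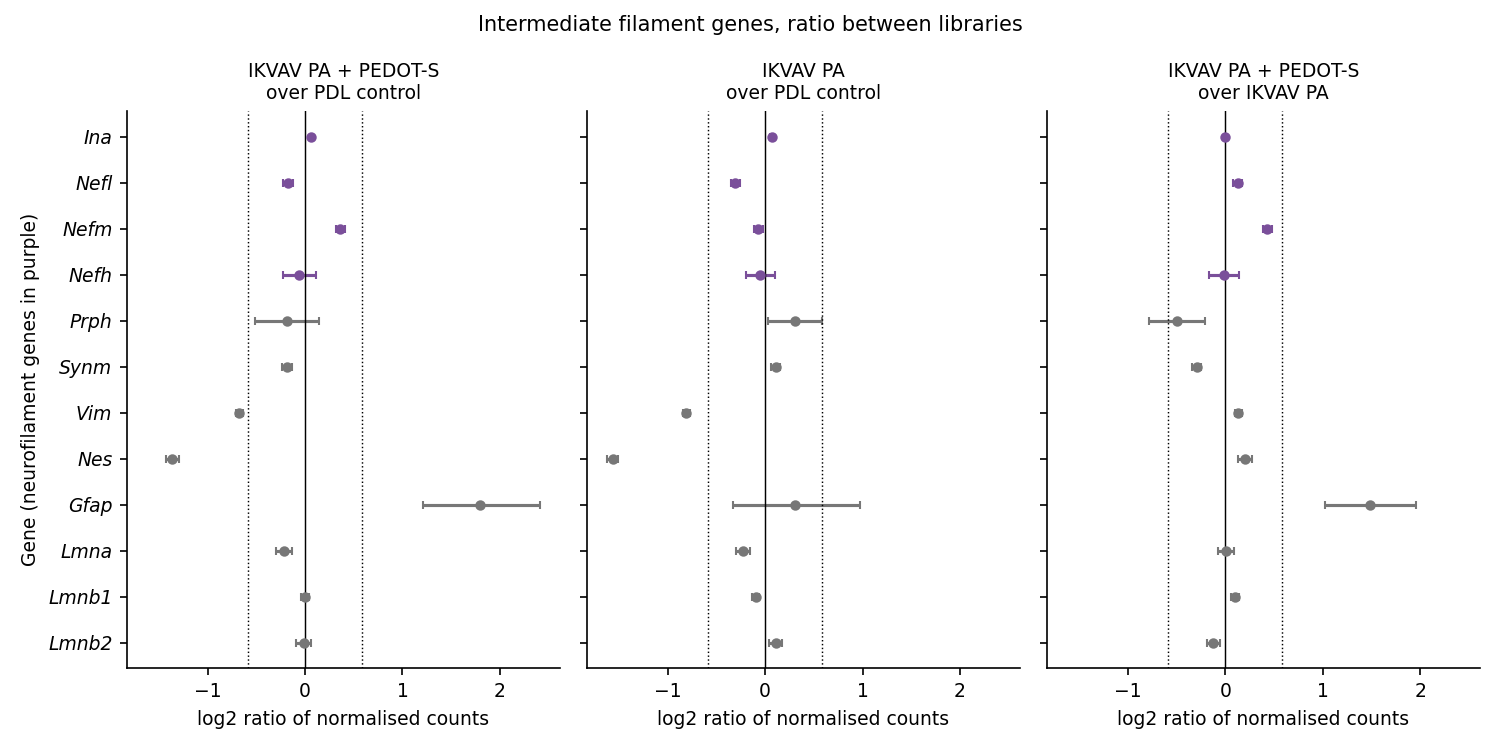
Log2 ratio of normalised counts with its 95% counting interval for the 4 neurofilament genes (purple) and the 8 other intermediate filament genes measured (grey), in the 3 comparisons. Dotted lines mark 1.5-fold. Vim and Nes lie left of the line against the PDL control and Gfap right of it where the PEDOT-S library is on top.

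Genes that phosphorylate, carry, anchor and degrade neurofilaments mostly lay near no difference. Over all genes compared, at most 3.76% were lower and at most 0.54% higher in any comparison, so a count of 0 in a short list is not unusual. Of 19 genes that modify neurofilaments, mostly kinases and phosphatases, none was counted as different in any comparison, with medians of 0.04, -0.001 and 0.06. Cdk5, a kinase of the lysine-serine-proline repeats, was at 0.16 with PEDOT-S and 0.10 in IKVAV PA against the control, and its activator Cdk5r1 (p35) at 0.27 and 0.19. None of 10 transport motors was counted (medians 0.001, 0.02 and -0.01). Kif5a, the neuronal kinesin heavy chain that moves neurofilament proteins, was at -0.15 and 0.09 against the control and Kif5b at 0.05 and -0.08. None of 12 cross-linkers and membrane skeleton genes was counted (medians -0.08, 0.03 and -0.12), although 11 of the 12 ratios were negative between the scaffolds. Dst, a linker of filaments, was at -0.13 there, and Plec, the linker plectin, at -0.44. Plec was the furthest below 0 of this list with PEDOT-S against the control, at -0.67 (-0.80 to -0.54) or 1.59-fold lower, with 10.5 CPM in IKVAV PA + PEDOT-S and 16.7 CPM in the PDL control, and did not pass the bound. None of 7 proteins reported to bind neurofilament transcripts was counted (medians 0.02, 0.02 and -0.04), with Tardbp, a nuclear RNA-binding protein, at -0.005 and -0.03 against the control.

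Of these lists, only that of turnover and chaperones held genes counted as different. Of 9 measured genes of 10, 3 were counted as lower with PEDOT-S against the control and 2 in IKVAV PA. Over all genes compared, 3.76% and 3.42% were lower. No gene of the list was counted as higher, and none was counted as different between the scaffolds (medians -0.08, 0.01 and -0.02). The lowest log2 ratio of the list between the scaffolds was -0.82. Hspb8 and Bag3, partners in chaperone-assisted autophagy, had 14 and 36 counts with PEDOT-S, 39 and 58 in IKVAV PA, and 101 and 123 in the PDL control. Cast, the calpain inhibitor calpastatin, was at 0.869, 1.53 and 2.45 CPM and was counted with PEDOT-S (log2 ratio -1.49). All 3 genes were weak, at no more than 2.45 CPM. With PEDOT-S and in IKVAV PA against the control, 522 and 475 of all 13884 genes were lower. Among the 10893 genes reaching 5 CPM the counts were 235 and 228, so weaker genes were counted as lower more often. Trim2, a ubiquitin ligase that acts on neurofilament light chain in mouse, stood at 799 CPM with PEDOT-S, 724 in IKVAV PA and 692 in the control, and was not counted as different.

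The neurons themselves were strongly represented. The 10 pan-neuronal genes summed to 8813 normalised CPM in IKVAV PA + PEDOT-S, 8941 in IKVAV PA and 8737 in the PDL control, and none was counted as different (medians 0.05, 0.02 and -0.0003). Map2, a dendritic microtubule protein, was at -0.04 and 0.002 against the control and Rbfox3, the nuclear protein NeuN, at 0.17 and 0.22. Relative to this sum, Nefm stood at 1.20% with PEDOT-S, 0.876% in IKVAV PA and 0.941% in the PDL control, and its log2 ratio was 0.35 with PEDOT-S against the control (0.30 to 0.40). Nefl stood at 0.923%, 0.833% and 1.05%, with -0.34 in IKVAV PA against the control (-0.38 to -0.29). The directions of Nefm and Nefl were thus the same per pan-neuronal RNA.

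Few genes of young or of mature neurons passed the bound. With PEDOT-S against the control, 9 of 10 young neuron genes had positive ratios and 9 of 12 mature neuron genes negative ones. In IKVAV PA against the control 8 of 10 were positive and 7 of 12 negative, and between the scaffolds 6 of 10 and 9 of 12. Genes of at least 50 CPM had median log2 ratios of 0.03, 0.008 and 0.03 in these comparisons, so small positive ratios were common at that level. The genes of a list are not replicates. Of 10 young neuron genes 1 was counted as higher with PEDOT-S against the control, and none in the other comparisons (medians 0.06, 0.06 and 0.05). It was Sox4, a transcription factor of young neurons with 54.6% of its exonic bases shared, at 408, 334 and 257 CPM. None of 12 mature neuron genes was counted (medians -0.10, -0.03 and -0.11), with the synaptic vesicle genes Syn1 at -0.16 and 0.02 and Syp at -0.04 and -0.07 against the control. With PEDOT-S against the control the mature neuron genes ranged from -0.50 to 0.20. Of 6 genes that mark neurofilament-rich neuron classes 3 were measured and none was counted (medians 0.29, 0.08 and 0.23). Fezf2 and Bcl11b, factors of deep-layer projection neurons, stood at 73.9 and 323 CPM with PEDOT-S, 60.2 and 307 in IKVAV PA and 60.3 and 287 in the control. Pvalb, a marker of fast-spiking interneurons, and Mnx1, a motor neuron factor, had 0 counts in all 3 libraries, for which a floor of 3 counts stands at 0.0383, 0.0241 and 0.0377 CPM and the upper 95% counting limit at 0.0471, 0.0296 and 0.0463 CPM.

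Markers of other cell types differed between the libraries alongside these values, and their part in the neurofilament ratios was not tested. Cell cycle genes summed to 59.6 CPM with PEDOT-S, 60.04 in IKVAV PA and 133 in the control, with 5 of 6 lower in each scaffold library (medians -1.66, -1.55 and -0.10). Mki67, the proliferation antigen, was at -1.74 and -1.73 against the control and Ccnb1, cyclin B1, at -2.07 and -1.75. Astrocyte markers summed to 200.2, 199 and 264 CPM. Of the 7 measured astrocyte markers, 3 were lower and 1 higher with PEDOT-S, 5 were lower in IKVAV PA and 2 higher between the scaffolds (medians -0.62, -1.27 and 0.44). Slc1a3, a glutamate transporter, was at -1.07 and -1.22 against the control and Aldoc, an aldolase, at -0.62 and -1.86. Oligodendrocyte lineage markers summed to 101, 76.4 and 100.3 CPM. They went both ways, with 4 of 8 higher and 3 lower with PEDOT-S, 2 and 3 in IKVAV PA, and 3 and 1 between the scaffolds (medians 0.40, 0.27 and 0.28). The precursor genes Olig1 and Pdgfra were at -1.97 and -2.56 with PEDOT-S and -1.92 and -1.40 in IKVAV PA, while the myelin genes Mag and Mobp were at 2.03 and 2.27 with PEDOT-S and 1.13 and 1.01 in IKVAV PA. Not all myelin genes did so. Mog stood at 8.74 CPM with PEDOT-S and 11.7 in IKVAV PA, and was not counted as different in any comparison. Fibroblast and vascular markers summed to 16.8, 30.9 and 62.1 CPM, with 5, 3 and 2 of 6 lower (medians -1.38, -0.86 and -0.51). Col1a1, a collagen, was at -2.64 and -1.27 against the control and Pdgfrb, a pericyte receptor, at -1.53 and -1.28. Microglia markers were near absent, at summed levels of 2.25, 2.20 and 1.59 CPM, with 1 of 6 measured and not counted as different (Aif1, log2 ratios 0.48, 0.61 and -0.12). Itgam had 7 counts with PEDOT-S and 0 in the other two libraries.

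The genes whose ratios to the PDL control lay nearest to each member were looked up among 8047 protein-coding genes with a mean of at least 10 CPM and little shared sequence, by distance in the 2 log2 ratios over the 3 libraries. For Nefm they were Sc5d (distance 0.005), Atox1 (0.02) and Hgh1 (0.02), and only 38 genes lay within 0.1. Sc5d stood at 192 CPM with PEDOT-S, 142 in IKVAV PA and 149 in the control. For Nefl they were Mmachc (0.007), Rrp8 (0.009) and Slc24a4 (0.01), with 162 genes within 0.1. Ina and Nefh had patterns that many genes shared, with 2275 and 1940 genes within 0.1. Zkscan1, Impdh1 and AI597479 lay nearest to Ina and Rpap3, Cenpc1 and Zbtb41 nearest to Nefh. With 3 libraries and a shared control, such nearness describes these values only.

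Genes beside the members were read by position, a choice made after seeing the data. The protein-coding genes on either side of the Nefl and Nefm locus were weak or near absent. Dock5 stood at 3.30, 3.35 and 4.51 CPM, and Gnrh1, Adam7 and Adamdec1 were below the filter. None of the measured neighbours of Ina (Cnnm2, Pcgf6, Taf5) and of Nefh (Nipsnap1, Thoc5, Ap1b1, Gas2l1) was counted as different in any comparison.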

How the data were processed

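Counts per gene, as deposited, are whole numbers without normalisation, 1 file for each of the 3 libraries (file headers and values). Per the labels' protocols the RNA was column-purified total RNA and the kit was TruSeq Total RNA, although the molecule field names polyA RNA. Tools in the submitters' processing notes are HTSeq 2.0.2, STAR 2.7.5, cutadapt 4.2 and DESeq2 1.14.1, with build mm10. The sources used here give no order of steps, annotation, strand setting or filter.

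GENCODE M21 (GRCm38) supplied symbols, exons and sequences for 54165 of 54232 identifiers. TMM factors came from edgeR 4.0.16 (R 4.3.3). For a ratio between libraries the interval was the exact Clopper-Pearson one, conditional on the gene's summed count. For a ratio of subunits it was the exact conditional interval of the odds ratio (SciPy 1.17.1). Both were checked on simulated counts.

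The 4 members, the 16 gene lists and the comparisons were chosen with earlier results of these data known. Named genes are the members, the other intermediate filaments measured, up to 4 counted members of each other list or else its first 2 measured, and the 3 genes nearest to each member in pattern. Trim2, Pvalb, Mnx1, Itgam, Mog and the neighbours were named after their values were seen. Some items the rule names are not reported here. Alternatives were other scalings (DESeq2 1.42.0 size factors, total counts, the pan-neuronal sum), other filters, a 2-fold bound, thinned libraries, protein-coding genes alone, removal of a length and GC trend, and other lengths.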

Additional observations from a re-analysis of the deposited data

How the results depend on the processing

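No paired analysis was possible because each group has 1 library and the groups share 1 repeat number. Under all 9 alternatives of scaling, filter, bound, depth and composition, 0 of the 4 neurofilament genes was counted as different in any comparison, and Nefm and Nefl kept the direction of their ratios. The 2-fold bound could change neither outcome, since it is wider than 1.5-fold and leaves the ratios as they are. The ratio of Nefm ranged from 0.33 to 0.37 with PEDOT-S against the PDL control and from 0.42 to 0.45 against IKVAV PA, and that of Nefl from -0.34 to -0.28 in IKVAV PA against the control. Ratios of Ina and Nefh between the scaffolds lay so near 0 that 2 of 9 alternatives turned their sign, and that of Nefh in IKVAV PA against the control turned in 1 of 9, to 0.01. With a length and GC trend removed, the log2 proportion of Nefm to Nefl was 0.16 in IKVAV PA against the control (0.23 without removal) and 0.37 with PEDOT-S against IKVAV PA (0.31 without removal); the cause was not tested. The number of genes counted over the whole table moved most, to 1325, 1338 and 1340 without an expression filter, 270, 246 and 120 at 5 CPM or more, and 271, 228 and 82 at the 2-fold bound (PEDOT-S against control, IKVAV PA against control, PEDOT-S against IKVAV PA), against 584, 550 and 326. Fewer genes tested and a wider bound give part of this by construction. With protein-coding genes alone 189 were counted between the scaffolds.

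The share of Ina depended a little on the length used. In IKVAV PA + PEDOT-S, IKVAV PA and the PDL control it was 76.9%, 80.1% and 77.3% of raw counts, and 84.5% in IKVAV PA and 81.8% in the control by coding length. Lengths chosen after seeing the data gave 79.4%, 81.9% and 78.7% (unshared bases), 77.6%, 80.8% and 78.0% (Nefm-201 alone for Nefm), and 76.98%, 79.98% and 76.8% (both together). IKVAV PA had the highest share in each case. The order of the other libraries turned with the length. By exonic, coding or unshared bases, and with both choices together, the share with PEDOT-S lay above that of the PDL control. By raw counts and with Nefm-201 alone it lay below. Of the 3 genes nearest to a member, 0 or 1 remained for each when only genes of at least 100 mean CPM were searched. Sc5d, Zkscan1 and Zbtb41, the only ones at that level, all remained. The others were too weak to be searched, so their loss follows from the limit and does not test the result. Depth limits Nefh most, which had 561 to 899 counts per library.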
